A study of Mus musculus with 36 samples.

Results

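The S100 calcium-binding protein genes were examined as 10 members, S100a1, S100a4, S100a6, S100a8, S100a9, S100a10, S100a11, S100a13, S100a14 and S100a16, out of 31102 genes named in the single-cell tables, and they were taken by name, without use of their values. The data came from mouse submandibular glands. Drop-seq, which captures single cells with barcoded beads and counts transcripts by unique molecular identifiers (UMIs), was available for 26 glands of females and males at postnatal day 40 (P40) or P90. Of the controls 6 were taken at each age, and of the double-mutants 7 at each age. Another 4 glands at P70, 2 of each genotype, had been profiled by CITE-seq, which reads RNA together with antibody tags on the cell surface, and 1 control gland (P70) and 1 double-mutant gland (P100), both female, by bulk mRNA-seq. The CITE-seq double-mutant glands were both female, and the CITE-seq controls were a male and a female.

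All mice were C57BL/6 and carried K14-Cre together with an EYFP reporter in the Rosa26 locus, the controls included. Double-mutant mice also carried a gain-of-function allele of β-catenin and a loss-of-function allele of the BMP receptor Bmpr1a, so recombination took place only in cells in which the Krt14 promoter, a promoter of basal epithelium, was or had been active. Glands were dissociated and sorted for live cells before capture, so levels describe the cells that survived this. In these 3′ tags, Bmpr1a differed by -0.19 ± 0.12 log2 units (double-mutant minus control, ± standard error) between the genotypes (adjusted p = 0.22), a difference that does not check the deletion because the tag need not lie in the deleted part, whereas Axin2, a target of Wnt signaling, was 3.33 ± 0.49 log2 units higher (adjusted p = 9.9e-05, edgeR).

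S100 proteins are small calcium sensors with a pair of EF-hand motifs that mostly act as dimers. On binding calcium they expose a surface that grips other proteins, among them annexins and non-muscle myosin, and some are released from cells and bind receptors such as Ager (RAGE) and Tlr4. In glandular and squamous epithelia different members mark different layers, and the S100a8–S100a9 pair, calprotectin, is a main cytosolic protein of neutrophils that keratinocytes also make under stress.

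All 10 members lie on mouse chromosome 3 (build mm10), 8 of them within chr3:90511034-90695721, a stretch of 184.688 kb. S100a11 and S100a10 lie 2824.766 kb further along, in chr3:93520488-93564643. S100a1 (chr3:90511034-90514392, minus strand) and S100a13 (chr3:90514435-90524581, plus strand) start head to head with 42 bases between their first exons. The exons of S100a4 overlap those of the transcript model RP23-326D6.5 on the same strand, and the counting could have split reads between them. RefSeq promoter windows (GRCm38.p6) were found for 8 of the 10 members, not for S100a10 and S100a14. The 250 bases before the RefSeq start of those whose levels differed between the genotypes are shown here 5′ to 3′, with capitals marking matches to the letters of a TATA box (TATAAA) or a C/EBP motif (TTGCNNAA), each searched on both strands.
S100a4, chr3:90603520-90603769, plus strand: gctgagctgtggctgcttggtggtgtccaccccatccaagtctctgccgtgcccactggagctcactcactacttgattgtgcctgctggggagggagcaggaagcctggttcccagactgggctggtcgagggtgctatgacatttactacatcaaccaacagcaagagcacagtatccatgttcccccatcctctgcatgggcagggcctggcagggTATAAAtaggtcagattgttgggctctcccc
S100a6, chr3:90612644-90612893, plus strand: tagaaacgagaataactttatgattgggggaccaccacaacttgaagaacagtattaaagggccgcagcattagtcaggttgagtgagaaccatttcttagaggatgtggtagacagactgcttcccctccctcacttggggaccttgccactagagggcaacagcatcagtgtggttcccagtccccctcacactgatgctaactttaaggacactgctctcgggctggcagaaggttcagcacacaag
S100a8, chr3:90668821-90669070, plus strand: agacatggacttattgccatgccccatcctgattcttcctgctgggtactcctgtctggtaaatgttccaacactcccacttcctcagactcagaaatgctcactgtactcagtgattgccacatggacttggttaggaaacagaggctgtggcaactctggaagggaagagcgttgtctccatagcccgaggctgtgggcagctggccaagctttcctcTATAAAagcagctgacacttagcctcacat
S100a9, chr3:90695722-90695971, minus strand: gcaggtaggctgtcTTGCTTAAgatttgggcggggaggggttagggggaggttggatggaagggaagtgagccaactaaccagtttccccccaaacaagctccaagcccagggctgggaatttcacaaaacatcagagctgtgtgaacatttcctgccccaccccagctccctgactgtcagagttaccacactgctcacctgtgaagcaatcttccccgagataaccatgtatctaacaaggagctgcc
S100a1, chr3:90514331-90514580, minus strand: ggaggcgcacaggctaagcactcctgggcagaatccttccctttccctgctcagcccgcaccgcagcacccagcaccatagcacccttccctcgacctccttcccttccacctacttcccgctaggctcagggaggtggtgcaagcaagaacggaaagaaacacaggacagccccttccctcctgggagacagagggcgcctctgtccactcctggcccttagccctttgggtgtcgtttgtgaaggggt
The TATA letters began 31 bases before the start of S100a4 and 30 bases before that of S100a8, and 12.4% of 32851 promoter windows of the same length held them. The C/EBP letters began 236 bases before the start of S100a9 and were found in 9.56% of windows. Neither an AP-1 motif (TGANTCA, 6.75% of windows) nor a TCF/LEF motif (ATCAAAG, 3.21%) matched in these 5 windows, while the window of S100a11 held 2 AP-1 matches, 136 and 38 bases before its start, and 1 of 2 windows of S100a16 held 1, 192 bases before its start. Matches describe these letters only. The promoter windows of S100a1 and S100a13 share 104 bases.

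The Drop-seq tables held 26987 barcodes, of which 23346 cells passed the limits of at least 100 genes and under 15% mitochondrial UMIs, 10743 from control and 12603 from double-mutant glands. UMIs in these cells summed to between 650301 and 6994504 per gland, with a median of 2062 UMIs per control cell and 1151 per double-mutant cell, a difference in depth that limits the detection of low genes in the latter. The libraries shared 19 barcodes. No batch held control glands of both ages, and 5 of the batches named in the labels held both genotypes. Double-mutant P40 replicate 1 (labeled male) and double-mutant P90 replicate 5 (labeled female) expressed sex-linked genes of the opposite sex, and double-mutant P90 replicate 4 was high in ribosomal genes, so calls were also made without them. Cells were grouped into 26 clusters with all S100 genes held out, and 23 of the clusters were named as 17 classes from fixed marker lists, each name ending in "-like". The remaining 3 clusters, with 937 cells, stayed unnamed.

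Levels are given as UMIs of a gene per 1e6 UMIs (CPM) of a gland or of a class in a gland. S100a1 was the most abundant member with 19873 UMIs in 29.7% of cells, followed by S100a6 (11643 UMIs) and S100a11 (9790). S100a10 had 4439, S100a16 3377 and S100a13 2232 UMIs. The other 4 members were sparse, with 382 UMIs for S100a4, 375 for S100a14, 202 for S100a8 and 145 for S100a9. A 3′ tag count does not depend on transcript length, so these totals can be set side by side between genes within the assay.

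Each abundant member had its own distribution over cell classes (the map of levels by class). Classes were compared over glands with at least 10 cells of the class, as a description without a test. A pair of neighbors in the order was called separate when the means differed by more than the larger of both standard deviations (SD).

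**Figure D1:**
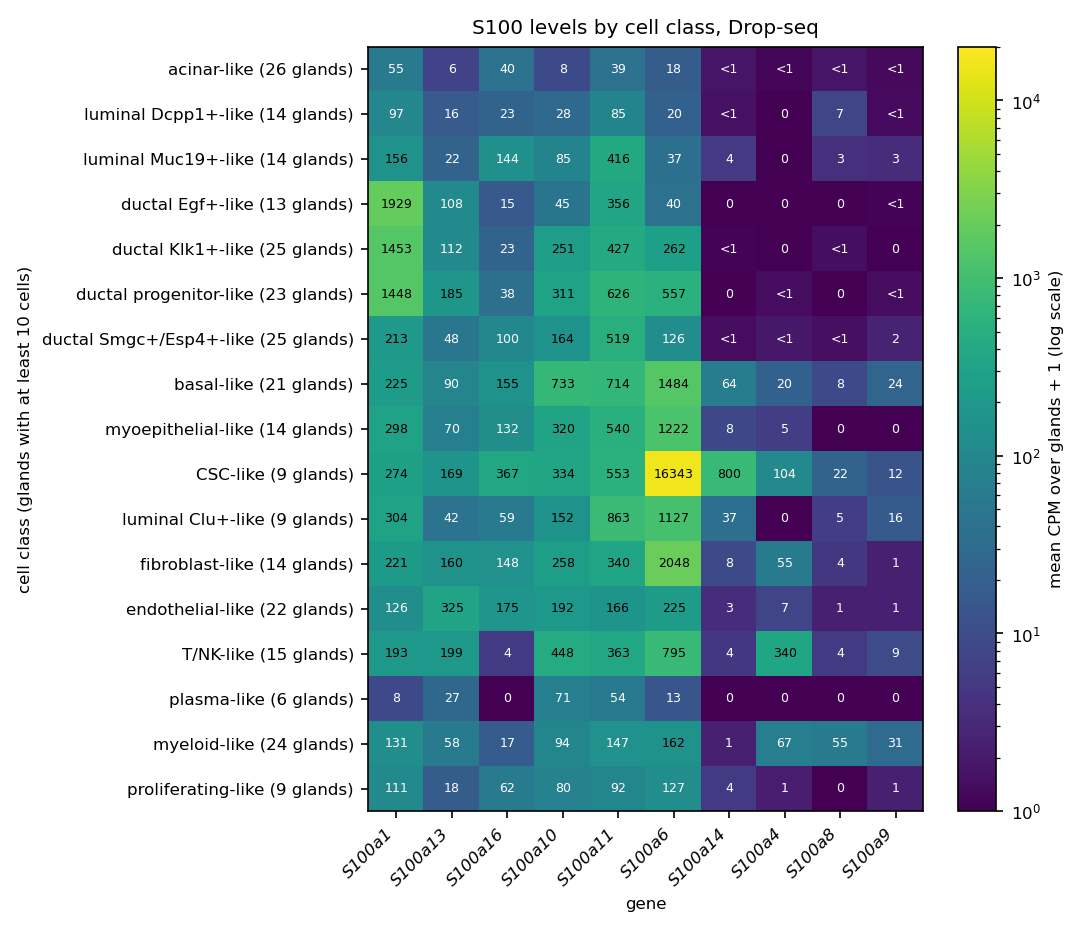
Mean level of each S100 gene (columns, in CPM) in each of the 17 named cell classes (rows, with the number of glands that had at least 10 cells of the class), both genotypes together. Color shows mean CPM + 1 on a log scale and the printed number is the mean CPM. The highest cell of the map is S100a6 in CSC-like cells (16343 CPM), S100a1, the column at the left, is highest in 3 ductal classes, and S100a8 and S100a9 reach at most 55.4 and 31.1 CPM, both in myeloid-like cells.

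S100a1, a sensor best known from heart muscle, where it acts on calcium handling, was highest in 3 ductal classes. Its mean level was 1929 ± 759.5 CPM (SD, n = 13 glands) in ductal Egf+-like cells, the granular duct, 1453 ± 436 CPM (n = 25) in ductal Klk1+-like cells, the striated duct, and 1448 ± 480.5 CPM (n = 23) in ductal progenitor-like cells, which carry Ascl3 and Foxi1. These 3 classes did not differ from each other beyond their spread. The next class, luminal Clu+-like cells, had 304 ± 129 CPM (n = 9), and the step down to it was beyond the spread. Ductal Smgc+/Esp4+-like cells, a class of intercalated duct, were only ninth in the order, with 213 ± 112 CPM (n = 25). Acinar-like cells had 55.2 CPM and plasma-like cells 7.98 CPM. One of the unnamed clusters, led by Duoxa2, an NADPH oxidase maturation factor of ducts, also had a high S100a1 level of 1472 CPM.

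S100a6, calcyclin, a gene named for its rise in cycling cells whose protein binds annexins and Cacybp, was the member with the widest range. CSC-like cells, the cluster named from Wnt and BMP genes such as Axin2, Lef1, Bmp4 and Notum, had 16343 ± 4579 CPM (n = 9 glands, lowest 10972 and highest 24848). A UMI was seen in 91.5% of the 306 CSC-like cells, and these few cells held 40.1% of all S100a6 UMIs. Of the 306, 305 came from double-mutant glands. Fibroblast-like cells followed with 2048 ± 1013 CPM (n = 14), then basal-like cells (1484 ± 1004 CPM, n = 21), myoepithelial-like cells (1222 ± 622 CPM, n = 14) and luminal Clu+-like cells (1127 ± 530.4 CPM, n = 9). Only the step from CSC-like to fibroblast-like cells was beyond the spread. Acinar-like cells had 17.8 CPM.

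S100a14, a member found mainly in epithelia, was nearly confined to the same cells in these libraries. CSC-like cells had 800 ± 232 CPM (n = 9) and held 60.5% of its UMIs, and basal-like cells had 63.9 ± 60.6 CPM (n = 21) and held 20% of them. The step between both classes was beyond the spread. All other classes had mean levels of at most 36.5 CPM.

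S100a10, which pairs with Anxa2 and does not respond to calcium, and S100a11, a partner of Anxa1, were spread over many classes. S100a10 was highest in basal-like cells at 733 ± 241 CPM (n = 21), followed beyond the spread by T/NK-like cells at 448 ± 194 CPM (n = 15). S100a11 had 863 ± 330 CPM (n = 9) in luminal Clu+-like, 714 ± 336 CPM (n = 21) in basal-like and 626 ± 263 CPM (n = 23) in ductal progenitor-like cells, which did not differ beyond their spread. Both were low in acinar-like cells, with 8.14 CPM for S100a10 and 38.6 CPM for S100a11.

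S100a13, which takes part in the export of Fgf1, was highest in endothelial-like cells at 325 ± 212 CPM (n = 22), without a step beyond the spread anywhere in its order. S100a16, a broadly expressed member, was highest in CSC-like cells at 367 ± 133 CPM (n = 9), beyond the spread of the next class, endothelial-like cells, at 175 ± 106 CPM (n = 22). Acinar-like cells had only 40.05 CPM of S100a16 but, being 7689 cells, held 50.3% of its UMIs.

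S100a4, a member that binds the non-muscle myosin Myh9 and is known from motile cells, was highest in a class of lymphocytes here. T/NK-like cells had 340.3 ± 208 CPM (n = 15), beyond the spread of CSC-like cells at 104 ± 68.6 CPM (n = 9). Myeloid-like cells had a lower mean of 67.1 ± 63.8 CPM (n = 24) but held 46.6% of S100a4 UMIs. In the order they stood between CSC-like and fibroblast-like cells and were not separate from either. Among sub-clusters of myeloid-like cells the level was 866 CPM in one led by Ccr7 and Plac8 and 273 CPM in the Mmp12/Spp1 macrophage-like one.

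Most UMIs of S100a8 and S100a9 lay in myeloid-like cells, 77.7% for S100a8 and 60% for S100a9. Their mean levels there were 55.4 ± 97.6 CPM and 31.1 ± 61.0 CPM (n = 24), with a median of 0 CPM for both. No neighbors in the order of classes were separate for either gene.

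For each member with at least 200 UMIs, the genes outside the family with the most similar profile were taken by Pearson correlation of log2(CPM + 10) over the 17 classes, among 6454 genes. Classes share libraries and differ in depth, so these values only describe the profiles. The most similar genes to S100a14 were Stra6 (r = 0.98), the retinol receptor, Notum (0.97), a secreted Wnt inhibitor that was itself one of the markers of the CSC-like cluster, and Celf4 (0.96). S100a8 was most similar to Ptpro (0.96), Smox (0.93) and Cd68 (0.93), the last of them a macrophage gene. S100a1 was most similar to Unc13b (0.92), the chloride channel Cftr (0.91) and Tmem52 (0.91), all at their highest in ductal classes. S100a6 lay closest to Sppl3 (0.93), Hnrnpul2 (0.92) and Exoc4 (0.92), S100a4 to Chsy1 (0.92), Evl (0.91) and Neurl3 (0.91), and S100a10 to Ppig (0.95), Hmgb1 (0.95) and Smek1 (0.94). For S100a11 the genes were Luc7l (0.94), Pebp1 (0.93) and Bcap31 (0.93), for S100a13 Macf1 (0.91), Cyth2 (0.91) and Apc (0.90), and for S100a16 Zfp503 (0.88), Zfp462 (0.88) and Sh3d19 (0.88).

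The genotypes were then compared over the 26 glands on UMIs summed per gland, with edgeR's quasi-likelihood test, sex and stage as covariates, and Benjamini-Hochberg adjustment over all 10488 genes tested. A gene was called at an adjusted p under 0.05. Of the 10 members, 9 passed the filter on low counts. Of these, 4 were called higher in double-mutant glands (S100a4, S100a6, S100a8 and S100a14), where 14.4% of all genes were, and 1 was called lower (S100a1), where 7.56% of all genes were. In either direction 22% of genes were called. The median log2 fold change of the members was 0.32, against 0.02 over all genes. Of those called higher, only S100a6 also passed the filter in fits of control glands alone. S100a4, S100a8 and S100a14 had passed it only through the double-mutant glands, a limit that the count and the median share. Replicates are separate glands, so p-values measure the spread between glands. In the values below, fewer cells of a type and less RNA per cell cannot be told apart in a sum over a gland.

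**Figure D2:**
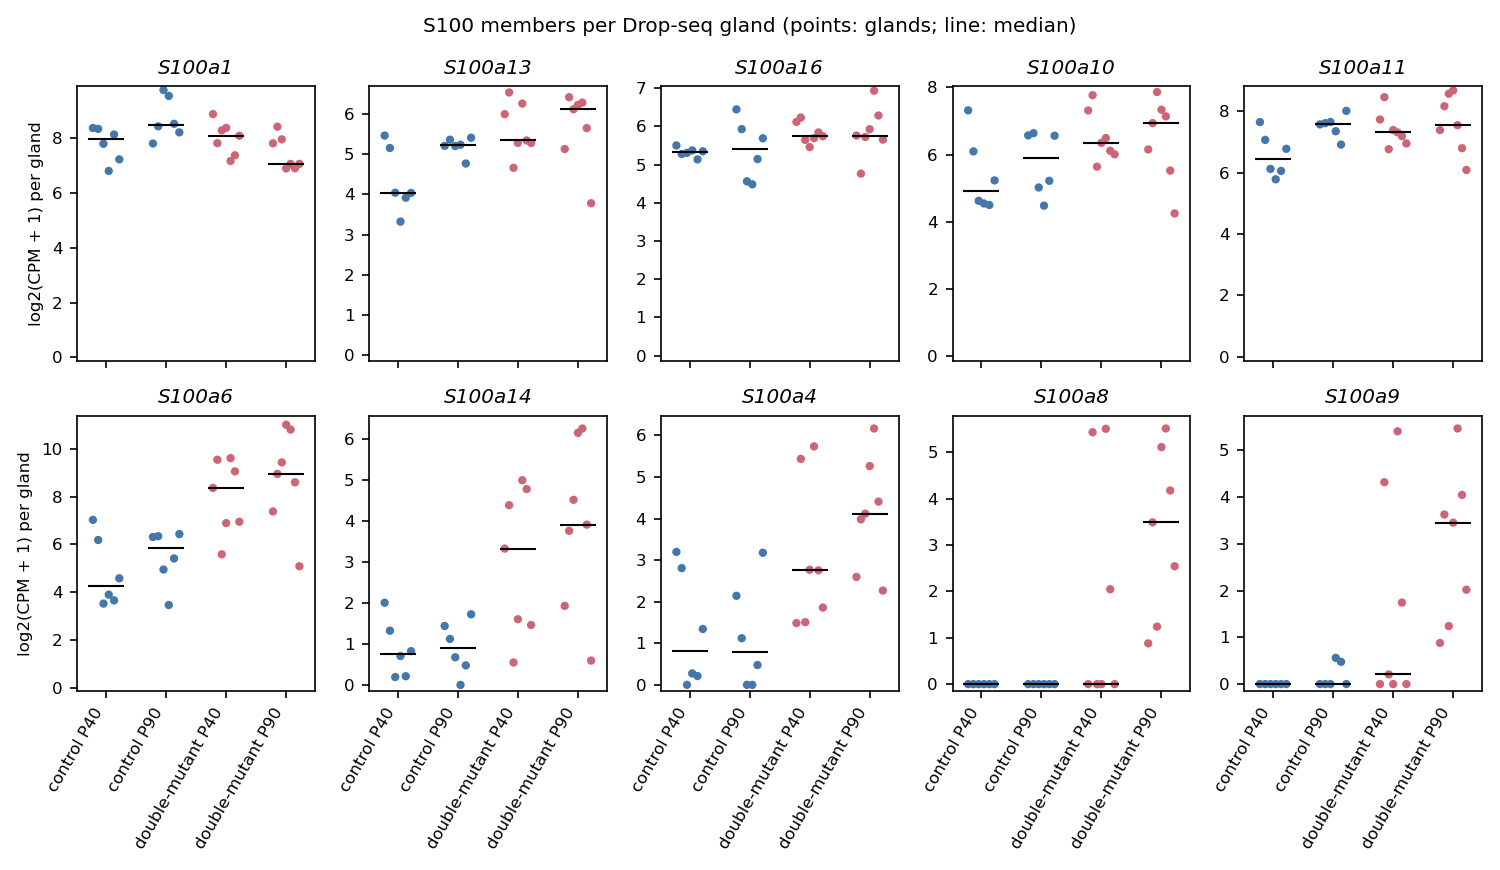
Level of each S100 gene per Drop-seq gland as log2(CPM + 1), one panel per gene with its own axis, for control glands (blue) and double-mutant glands (red) at P40 and P90. Points are glands and lines are medians. S100a6, S100a14 and S100a4 reach values in double-mutant glands that no control gland has, and S100a8 is at 0 in all 12 control glands. For S100a1 at P90, 4 of 7 double-mutant glands lie below every control gland of that age, and the others overlap with controls.

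S100a6 per gland, as lowest, median and highest, was 10.4, 18.3 and 129 CPM in control glands at P40 and 9.98, 59.8 and 85.1 CPM at P90. In double-mutant glands it was 46.8, 327 and 779.6 CPM at P40 and 32.8, 492.8 and 2060.4 CPM at P90. Of the 14 double-mutant glands, 10 were above every control gland, and the groups overlapped through the lowest double-mutant glands, P40 replicate 3 and P90 replicate 7. The difference was 2.80 ± 0.44 log2 units (adjusted p = 0.00019, edgeR). The double-mutant mean was higher in each of the 5 batches that held both genotypes, by 1.32 to 5.29 on the log2(CPM + 1) scale.

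S100a14 was at most 3.01 CPM in control glands. In double-mutant glands its lowest, median and highest levels were 0.461, 9.01 and 30.8 CPM at P40 and 0.509, 14.003 and 75.2 CPM at P90. Of the double-mutant glands, 9 of 14 were above every control gland. The difference was 3.34 ± 0.60 log2 units (adjusted p = 0.000598, edgeR), with higher values in 5 of 5 batches, but the gene had passed the filter on low counts only through the double-mutant glands.

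S100a4 was at most 8.17 CPM in control glands, with the highest levels in P40 replicate 1 and P90 replicate 6. Double-mutant glands had 1.80, 5.75 and 52.3 CPM at P40 and 3.82, 16.4 and 70.8 CPM at P90, and 7 of 14 were above every control gland. The difference was 2.19 ± 0.59 log2 units (adjusted p = 0.011, edgeR), in the same direction in 5 of 5 batches, but with batch as a factor it was 2.05 (adjusted p = 0.092). In fits of control glands alone S100a4 did not pass the filter on low counts, so it too had passed only through the double-mutant glands.

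S100a8, a subunit of calprotectin, had 0 UMIs in all 12 control glands and 202 UMIs in double-mutant glands. Levels were 0, 0 and 44.6 CPM at P40, where 4 of 7 double-mutant glands were at 0, and 0.841, 10.2 and 44.8 CPM at P90, where none was. Against the limit of 3 UMIs that a count of 0 allows over all control glands, the pooled level was at least 83.7-fold higher. The test called it (adjusted p = 0.0056, edgeR), but the gene had passed the filter only through the double-mutant glands, and with batch as a factor the adjusted p was 0.056.

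S100a9, its partner, did not pass the filter. Control glands had 2 UMIs in all, both in males at P90, and double-mutant glands 143 UMIs, a pooled ratio of 88.9 with a counting interval (95%, Clopper-Pearson) from 24.2 to 741. Double-mutant levels were 0, 0.154 and 41.5 CPM at P40 and 0.841, 9.97 and 43.4 CPM at P90. At P90 the groups did not overlap for S100a8 or for S100a9. Among the 14823 genes with at least 20 UMIs at P90, 0.951% were higher in every double-mutant gland than in every control gland.

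S100a1 changed in the other direction. Control glands had 111, 252 and 331 CPM at P40 and 224, 357 and 868 CPM at P90, and double-mutant glands 143, 272 and 472 CPM at P40 and 118, 133 and 343 CPM at P90. At P40 the groups overlapped, with 2 of 7 double-mutant glands above every control gland and a pooled level 1.28 times that of controls, and at P90 4 of 7 double-mutant glands were below every control gland. Over all glands S100a1 fell by 0.99 ± 0.32 on the log2 scale (adjusted p = 0.028, edgeR), with lower means in 4 of 5 batches. With batch as a factor it was -1.05 (adjusted p = 0.16).

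The remaining 4 members were not called. S100a13 differed by 0.29 ± 0.18 log2 units (adjusted p = 0.23) and S100a10 by 0.32 ± 0.25 (adjusted p = 0.36). S100a11 differed by -0.12 ± 0.20 (adjusted p = 0.71) and S100a16 by -0.12 ± 0.17 (adjusted p = 0.65), all from edgeR's quasi-likelihood test. The directions of S100a11 and S100a16 depended on the scaling, while S100a10 and S100a13 stayed positive under the 4 scalings and models tried. With library totals in place of TMM factors the median of all genes moved from 0.02 to 0.68, and 5532 of 10488 genes were called higher and 51 lower. S100a11 then turned to 0.52 (adjusted p = 0.087) and S100a16 to 0.50 (adjusted p = 0.031). S100a10 (0.95) and S100a13 (0.96) were called higher with these many other genes, and S100a1 was no longer called (-0.47, adjusted p = 0.14). In raw CPM, S100a13 and S100a16 were higher in double-mutant glands in 5 of 5 batches. Raw CPM is on the scale of library totals, on which the median of all genes was itself 0.68 log2 units higher. The share of all genes higher in 5 of 5 batches was not computed, here or for the members above. Some of these batches held 1 gland of a genotype, and some held glands of both ages. S100a13 had 35.1 CPM in the median control gland and 55.8 CPM in the median double-mutant gland, and S100a16 had 39.2 and 52.9 CPM.

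Without the 2 libraries with a doubtful sex label, and without the one high in ribosomal genes, the same number of members, 5, was called over all glands. The S100a6 difference was then 2.73 and 2.57, respectively. Leaving out cell classes was tried after seeing the data. Without CSC-like and luminal Clu+-like cells, each with 1 control cell, 4 members were called higher and 1 lower, and the differences of S100a6 and S100a14 were smaller, at 1.95 (adjusted p = 0.0009) and 1.84 log2 units (adjusted p = 0.019, edgeR). Without basal-like cells as well S100a14 no longer passed the filter, 3 members were called higher and 1 lower, and S100a6 was at 1.66 (adjusted p = 0.0017, edgeR). Without myeloid-like cells 3 were called higher and 1 lower.

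By stage, no member was called at P40 (0.255% of 10213 genes were), where the differences of S100a6 and S100a14 were 2.50 ± 0.60 (adjusted p = 0.071) and 2.95 ± 0.84 log2 units (adjusted p = 0.096). At P40 3 of 8 members had an unadjusted edgeR p under 0.05, as did 2411 of all 10213 genes. DESeq2, another count model, called 2 members, and 544 genes higher and 137 lower among all 10213. At P90, S100a6 (3.09 ± 0.57, adjusted p = 0.0093), S100a14 (3.88 ± 0.78, adjusted p = 0.014) and S100a4 (2.94 ± 0.62, adjusted p = 0.017) were called higher, 3 of 8 members tested, against 3.56% of 9094 genes, and S100a1 (-1.60 ± 0.41, adjusted p = 0.038) was called lower, against 1.34%. S100a14 and S100a4 did not pass the filter on low counts in fits of control glands alone. Without double-mutant P90 replicate 5, one of those with a doubtful sex label, S100a1 was at -1.51 (adjusted p = 0.072). All p-values are from edgeR. Whether the genotype difference itself differed between the stages was tested as an interaction, and no member was called (0.00876% of 11420 genes were). S100a1 had the lowest unadjusted p of the members, with an interaction of -1.43 ± 0.55 log2 units (adjusted p = 0.78), and was the 1 member of 10 with an unadjusted p under 0.05. Of all 11420 genes, 628 were under 0.05. DESeq2 called 0.

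Within a genotype, P90 and P40 did not give a call for any member. In double-mutant glands 0% of 9857 genes were called, and S100a6 was 0.67 ± 0.61 log2 units higher at P90 (adjusted p = 0.93). In control glands 10.9% of 9099 genes were called, and the S100a11 difference of 0.56 ± 0.21 log2 units had an adjusted p of 0.11 (edgeR). An unadjusted p under 0.05 was found for 0 of 10 members in double-mutant and 2 of 6 in control glands, and DESeq2 called 0 in both. Of all genes, 586 of 9857 in double-mutant and 2066 of 9099 in control glands had such a p. For control glands, stage cannot be told apart from batch.

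Between the sexes, S100a1 was the one member called in control glands, 1.32 ± 0.28 log2 units higher in males (adjusted p = 0.037, edgeR), where 0.736% of genes were called higher in males. Its lowest, median and highest levels were 111, 260.1 and 346 CPM in 6 females and 222, 346 and 868 CPM in 6 males. The share of ductal Egf+-like cells, which mature under androgens, moved with it, at 0.125, 1.84 and 7.06% of cells in control females and 5.40, 13.2 and 38.8% in control males. Without these cells, a comparison added after seeing the data, the sex difference in S100a1 was 0.06 log2 units (adjusted p = 0.94). These cells also had a median share of 6.23% in all control glands and 0.627% in double-mutant glands, and without them the genotype difference in S100a1 was -0.45 log2 units (adjusted p = 0.19). Without them S100a13 was called higher, by 0.56 log2 units (adjusted p = 0.033).

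Because the shares of cell types differed, the genotypes were also compared within the 9 classes that had at least 6 glands of each genotype with at least 10 cells. Of all member and class pairs, 4 were called, each of them S100a6 and each higher in double-mutant glands.

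**Figure D3:**
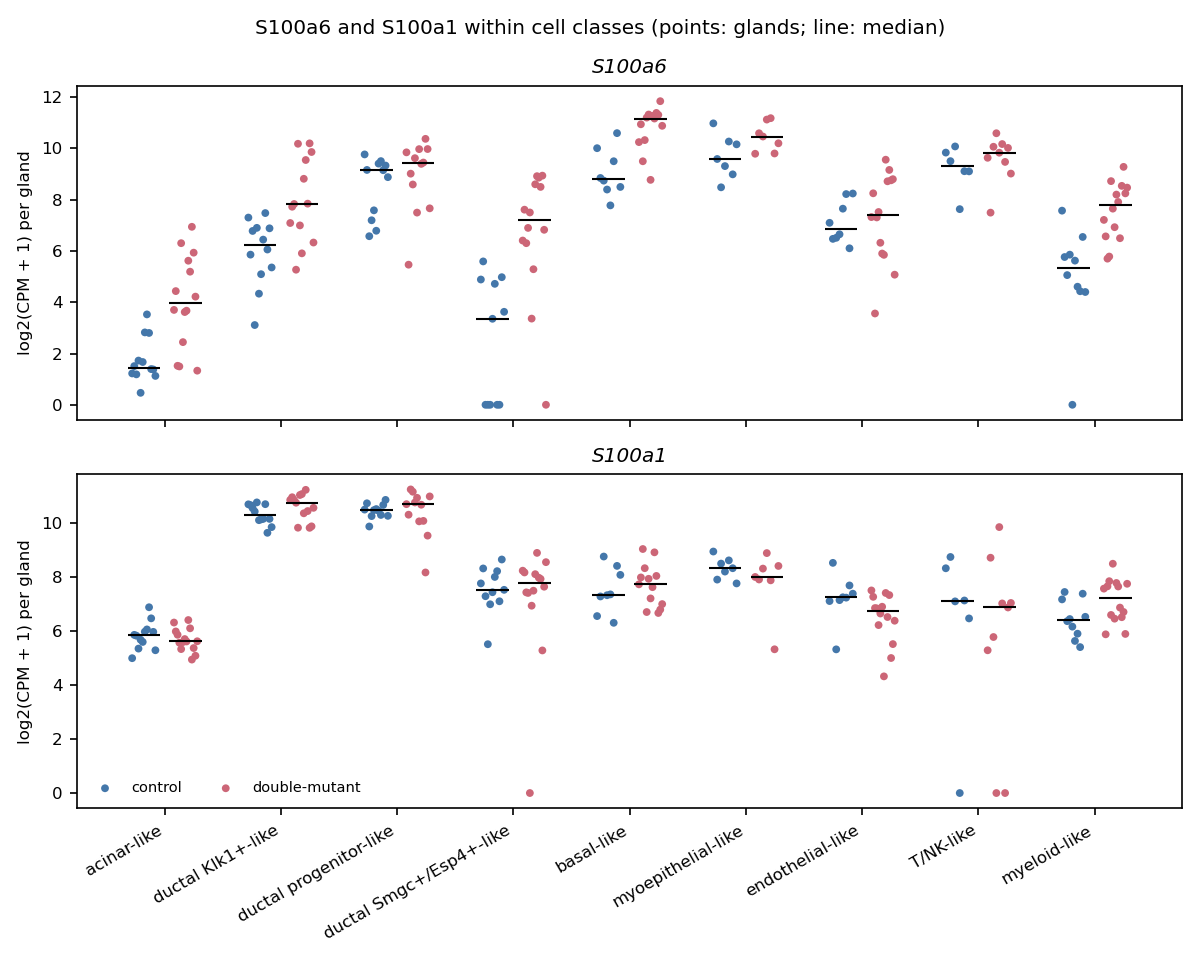
Levels of S100a6 (top) and S100a1 (bottom) within the 9 cell classes tested, as log2(CPM + 1) of the summed cells of a class in a gland, for control (blue) and double-mutant (red) glands. Points are glands with at least 10 cells of the class and lines are medians. The S100a6 points of double-mutant glands lie higher in acinar-like, Smgc+/Esp4+-like, basal-like and myeloid-like cells, while the S100a1 points of both genotypes overlap in each class.

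In basal-like cells S100a6 had 219, 444 and 1547 CPM in 8 control glands and 437, 2296 and 3672 CPM in 13 double-mutant glands, of which 9 were above every control gland. The difference was 1.66 ± 0.34 log2 units (adjusted p = 0.0019), where 8.22% of 1217 genes were called higher. This class was a single cluster of 375 control and 997 double-mutant cells and was not divided further. The paper divides basal cells into a normal and a tumor-specific subset. A different mix of such subsets and a different level within cells cannot be told apart in these sums. In ductal Smgc+/Esp4+-like cells levels were 0, 9.23 and 47.2 CPM in 11 control glands and 0, 149 and 489 CPM in 14 double-mutant glands. This difference was 3.67 ± 0.60 log2 units (adjusted p = 0.00034), where 3.02% of 959 genes were called higher. Control counts in this class were near 0, so the call rests on the double-mutant glands.

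In acinar-like cells the levels were low, 0.382, 1.74 and 10.5 CPM in 12 control glands and 1.51, 14.8 and 122 CPM in 14 double-mutant glands, with a difference of 2.73 ± 0.59 log2 units (adjusted p = 0.0069, where 1.99% of genes were called higher). With the number of cells as a covariate it was 1.40 (adjusted p = 0.075). Control counts per gland were near 0 in acinar-like cells too. In myeloid-like cells the levels were 0, 40.3 and 189 CPM in 10 control glands and 51.0, 219.8 and 621 CPM in 14 double-mutant glands, with a difference of 1.43 ± 0.46 log2 units (adjusted p = 0.044, where 5.97% of genes were called higher). Without the libraries with a doubtful sex label this call was lost (1.33, adjusted p = 0.066), as it was with the number of cells as a covariate (1.204, adjusted p = 0.43). The genotypes also filled different sub-clusters of this class. The pair of sub-clusters described below with S100a8 and S100a9 had 560 and 600.3 CPM of S100a6 and held 11 control cells among 276 and 0 among 104. The p-values within classes are from edgeR.

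Free RNA from broken cells gives UMIs in droplets of other cells, so the pooled S100a6 level was set beside Krt14, a basal keratin that acinar and myeloid cells should lack. In acinar-like cells S100a6 was 2.17 CPM in control and 9.87 CPM in double-mutant glands, and Krt14 was 1.21 and 1.22 CPM. In ductal Smgc+/Esp4+-like cells S100a6 was 13.6 and 189 CPM and Krt14 4.20 and 7.54 CPM. In myeloid-like cells S100a6 was 53.2 and 246 CPM and Krt14 14.4 and 17.8 CPM. In double-mutant CSC-like cells S100a6 was 17551 CPM and Krt14 328 CPM. The part of free RNA in the differences within classes was not tested.

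Other classes gave no call for any member, where between 0% of genes (T/NK-like and myoepithelial-like cells) and 1.23% (ductal progenitor-like cells) were called. Ductal Klk1+-like cells (0.831% of 2167 genes called) had an S100a6 difference of 1.54 log2 units (adjusted p = 0.062), and the differences were 0.42 in T/NK-like, 0.25 in endothelial-like (0.0947% of 1056 genes called), 0.22 in ductal progenitor-like and 0.11 in myoepithelial-like cells. S100a1 was not called within any class, with differences of 0.11 log2 units in ductal Klk1+-like, -0.11 in ductal progenitor-like and -0.15 in acinar-like cells. In raw CPM of S100a1, 6 of 13 double-mutant glands in ductal Klk1+-like and 7 of 14 in myeloid-like cells lay above every control gland. The share of all genes that did so within classes was not computed. With library totals the median of all genes was itself 0.195 and 0.752 log2 units higher in double-mutant glands in these classes.

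The few cells behind S100a8 and S100a9 were then counted. A UMI of either gene was found in 100 cells, 98 of them from double-mutant glands, and 26 cells had both. Among double-mutant cells, 43 of 2003 myeloid-like cells were positive (2.15%, 95% Clopper-Pearson interval 1.56 to 2.88%), and 20 of these 43 had both genes. Acinar-like cells, which should lack both genes, were positive in 18 of 3257 (0.553%, interval 0.328 to 0.872%), and none of these had both. The acinar-like cells were deeper, with a median of 3487 UMIs against 570 UMIs in myeloid-like cells. The intervals cover counting error only. Each cell was thinned to 500 UMIs to compare glands at equal depth, and cells with fewer were left out, so that 9979 of 12603 double-mutant and 10392 of 10743 control cells remained. The 43 positive myeloid-like cells had a median of 356 UMIs, so most of them were not in this comparison. The mean share of positive cells per gland was then 0.266% in double-mutant glands (SD 0.285, n = 14, 8 of 14 above 0) and 0.0111% in control glands (n = 12, 1 of 12 above 0), a difference of 0.255 percentage points (two-sided permutation test with 100000 resamples, p = 0.0036). Without thinning it was 0.792 percentage points (permutation p = 0.00024).

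Within the myeloid-like cells most of the signal came from one sub-cluster. This sub-cluster of 276 cells, 11 of them from control glands, was led by Clec4e, Lyz1 and Thbs1 and stayed unnamed, since 3 of 7 markers of C1q macrophages passed but none was among its 10 leading genes. It held 25 positive cells and 69.3% of all S100a8 and 53.8% of all S100a9 UMIs, at 643 CPM and 358 CPM. The Mmp12/Spp1 macrophage-like sub-cluster had 7 positive cells among 104.

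Markers of neutrophils were set side by side in positive and other double-mutant myeloid-like cells.

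**Figure D4:**
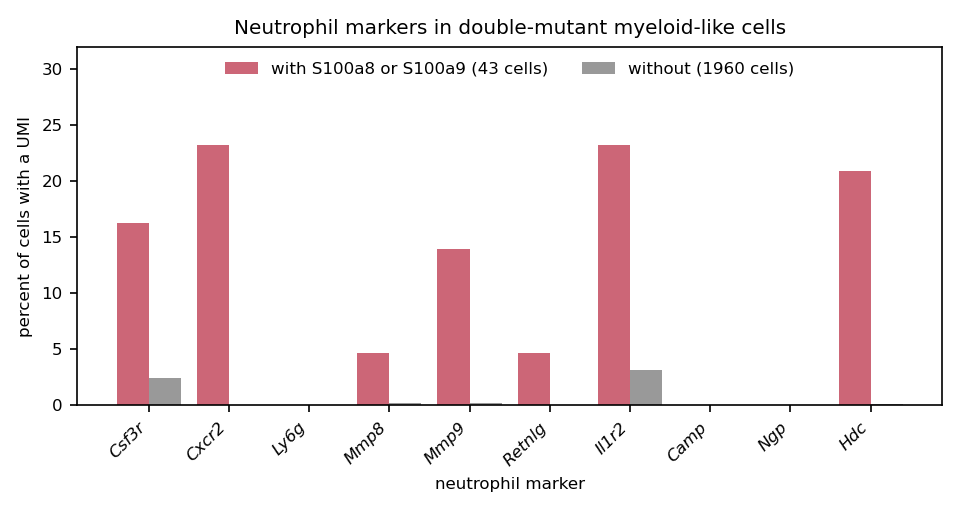
Share of double-mutant myeloid-like cells with at least 1 UMI of each of 10 neutrophil markers, for the 43 cells with S100a8 or S100a9 (red) and the 1960 cells without (gray). Bars start at 0. Cxcr2, Il1r2, Hdc, Csf3r and Mmp9 stand between 13.95 and 23.3% in the positive cells, and Ly6g, Camp and Ngp are at 0 in them.

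Cxcr2, the neutrophil chemokine receptor, was seen in 23.3% of the 43 positive cells and 0.051% of the 1960 others, and Csf3r, the G-CSF receptor, in 16.3% and 2.40%. Il1r2 (23.3% and 3.11%), Hdc (20.9% and 0.102%) and Mmp9 (13.95% and 0.153%) behaved alike, while Mmp8 and Retnlg were each seen in 4.65% of the positive cells. Of the 10 markers, 7 were detected in positive cells, and the granule genes Camp and Ngp as well as Ly6g were at 0 of 43 cells, which allows a share of cells with a UMI of up to 6.98% and sets no limit on cells that express them. The positive cells were the shallower ones, with a median of 356 UMIs against 577.5 UMIs.

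The CITE-seq glands were not used in any of these comparisons. There, 5 of 10 members were called higher in double-mutant glands (9.24% of 10058 genes were) and none was called lower (4.47% were), with 2 glands of each genotype and edgeR's quasi-likelihood test. Both double-mutant glands were female and the controls a male and a female. No sex term was fitted, so genotype is partly confounded with sex in these values. S100a6 was 1171 and 1114 CPM in the double-mutant and 126 and 77.1 CPM in the control glands, a difference of 2.79 ± 0.32 log2 units (adjusted p = 0.0035). The 2 double-mutant glands lay far above both controls. S100a8 was 68.1 and 46.2 CPM in double-mutant glands and S100a9 47.2 and 32.8 CPM, and both were at 0 UMIs in control glands, so that the pooled levels were at least 78.8-fold and at least 55.0-fold higher (adjusted p = 0.0024 and 0.0036, edgeR). S100a8, S100a9 and S100a14 passed the filter here only through the double-mutant glands, so these calls compare with counts at or near 0.

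S100a14 was 34.5 and 19.4 CPM in double-mutant and 0 and 1.36 CPM in control glands (adjusted p = 0.015), a pooled ratio of 37.9 with a counting interval from 12.3 to 190.0. S100a4 was 56.3 and 95.5 CPM against 13.7 and 4.08 CPM, a difference of 2.39 ± 0.50 log2 units (adjusted p = 0.023, edgeR). Without double-mutant replicate 1, double-mutant replicate 2 or control replicate 2 the S100a4 call was lost at differences of 2.67, 2.07 and 1.71 log2 units (adjusted p = 0.055, 0.052 and 0.051), and without double-mutant replicate 1 that of S100a14 too, at 3.77 (adjusted p = 0.091). These edgeR fits leave 1 gland in a genotype, which is assumed to vary like the glands of the other. S100a1 was not called, with 135 and 80.6 CPM against 140 and 99.7 CPM and a difference of -0.83 ± 0.34 log2 units (adjusted p = 0.14). S100a11 had 0.76 ± 0.26 (adjusted p = 0.083).

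Surface tags could be read on the same cells. S100a8 or S100a9 was seen in 6 cells of double-mutant replicate 1 and 8 cells of replicate 2, and in no control cell. Their median share of tags from the antibody to Ly6G, a neutrophil surface protein, was 15.6% and 9.32%, against 0.288% and 0.262% in the other cells of these glands. For CD11b, an integrin of myeloid cells, the medians were 8.76% and 8.09% against 0.144% and 0.187%. Of the positive cells, 4 of 6 and 5 of 8 exceeded the 95th percentile of the other cells for Ly6G. In the Drop-seq libraries, positive myeloid-like cells had 0 UMIs of the Ly6g transcript.

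In the bulk libraries, made from whole glands without dissociation, levels were computed as TPM, read counts divided by exon length and scaled to a fixed sum. There is 1 library of each genotype, so ratios compare these 2 libraries, at different ages, with counting error only, and without a replicate check. The median ratio of double-mutant to control over 13971 genes was 0.818.

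**Figure D5:**
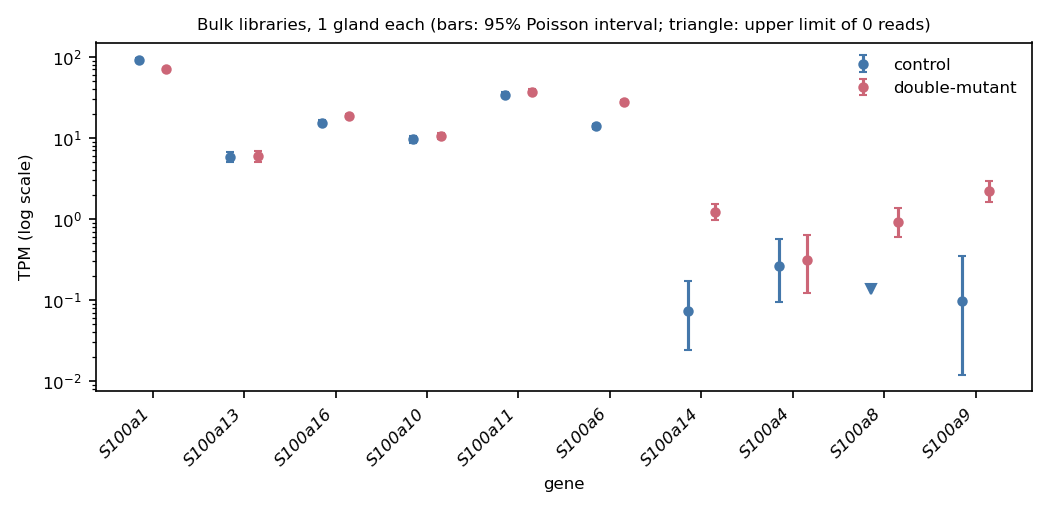
TPM of each S100 gene in the control (blue) and double-mutant (red) bulk library on a log axis. Bars are 95% Poisson intervals of the read counts, and the triangle marks the upper limit for S100a8, which had 0 reads in the control library. S100a6, S100a14, S100a8 and S100a9 are higher in the double-mutant library, S100a1 is lower, and the intervals of S100a4, S100a10, S100a11 and S100a13 overlap.

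S100a1 was the most abundant member in whole glands as well, with 92.2 TPM in the control and 70.6 TPM in the double-mutant library, a ratio of 0.766 (95% interval 0.721 to 0.813). S100a6 was 13.9 and 27.5 TPM, a ratio of 1.98 (1.81 to 2.16). S100a14 rested on 5 and 83 reads, a ratio of 16.7 (6.89 to 52.9). S100a9 had 2 and 45 reads, a ratio of 22.7 (5.93 to 193), and S100a8 0 and 25 reads, at least 8.41-fold higher against a limit of 3 reads. S100a16 had a ratio of 1.22 (1.118 to 1.33). The ratios of S100a10 (1.11, interval 0.980 to 1.27), S100a11 (1.09, interval 0.978 to 1.21) and S100a13 (1.03, interval 0.823 to 1.28) had intervals that include 1. S100a4 had 6 and 7 reads, a ratio of 1.18 (0.339 to 4.24), and a difference was not detectable at this depth. A ratio of at least 2 was reached by S100a9, S100a14 and, as a bound, S100a8, where 5.36% of the 13971 genes reached it, and no member had a ratio of at most 0.5, as 9.03% of genes did. S100a4, S100a8, S100a9 and S100a14 were the 4 lowest members per length in both libraries.

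Proteins that S100 members bind or signal through were followed as a list of 20 genes, of which 16 were tested over all Drop-seq glands. The list was drawn up with earlier results of these data known. Of the 16, 7 were called higher in double-mutant glands and 1 lower, where 14.4% of all genes were called higher and 7.56% lower, with a median log2 fold change of 0.30 against 0.02 over all genes. The annexin A2 side of the list was represented by Anxa2, the partner of S100a10 (0.72 ± 0.19, adjusted p = 0.0097), and Ahnak, a scaffold bound by that complex (1.47 ± 0.33, adjusted p = 0.0032). The plasminogen system, which the S100a10–Anxa2 complex helps to localize, was represented by Plat (3.21 ± 0.49, adjusted p = 0.00014) and Plau (2.21 ± 0.50, adjusted p = 0.0035), the plasminogen activators, and Plaur, the receptor of Plau (1.46 ± 0.31, adjusted p = 0.0024). In fits of control glands alone Plat did not pass the filter on low counts, so it had passed only through the double-mutant glands. Myh9, which S100a4 binds (0.99 ± 0.21, adjusted p = 0.0020), and Cd36 (1.64 ± 0.37, adjusted p = 0.0036) were the other 2, all in log2 units from edgeR.

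Cacybp, which S100a6 binds, was called lower, at -0.52 ± 0.14 log2 units (adjusted p = 0.013), but with library totals it was at 0.07. Anxa1, Anxa5, Anxa6, Bsg, Fgf1, Ly96, Myd88 and Sugt1 were tested and not called, with differences between -0.39 and 0.33. Ager, Tlr4, Anxa11 and Plg did not pass the filter. In the bulk libraries, among the list genes called higher, Plat had a ratio of 6.92 and Anxa2 1.10 (interval 1.003 to 1.21). Plaur rested on 2 and 10 reads, a ratio of 5.04 (interval 1.07 to 47.3). Plau went the other way, with a ratio of 0.777 (interval 0.614 to 0.982), where the median over all genes was 0.818. The ratios of Ahnak, Myh9 and Cd36 were within counting error of 1. Of 7 other S100 family genes, S100pbp, which is named for binding S100p and is no EF-hand protein, was the only one tested (0.12, adjusted p = 0.81). S100b was seen with 9 UMIs in control and 61 UMIs in double-mutant Drop-seq glands and was called higher in the CITE-seq glands, with 0 UMIs in both controls and 8 and 9 UMIs in the double-mutant glands, through which alone it had passed the filter.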

How the data were processed

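The authors mapped single-cell reads to mm10 using STAR and Drop-seq tools, took genes from GENCODE vM7 plus Cre and EYFP, and deposited the unnormalized UMI count of each gene in each barcode. For bulk RNA they deposited featureCounts read counts over exons, not normalized and with no strand setting given, and antibody tag counts for the CITE-seq cells, whose human spike-in cells they had taken out. The choice of members, lists and tests was made with earlier results of these data known, and 7 of 26 clusters were named in a second pass after seeing the data.

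From these counts, cells with at least 100 genes and under 15% mitochondrial UMIs (in CITE-seq also under 2500 genes) were kept and not screened for doublets. Drop-seq UMIs of kept cells ranged from 650301 to 6994504 per gland, and bulk libraries held 34515744 and 34729551 reads. The Leiden method grouped cells on 2000 variable genes without S100 genes, 30 principal components and 20 neighbors (resolution 1, scanpy 1.11.5, leidenalg 0.10.2). A class needed 3 markers at 2-fold in 10% of cells, and 1.5-fold in myeloid sub-clusters. UMIs summed per gland, or per gland and class, were tested with edgeR 4.0.16 (quasi-likelihood, TMM, filterByExpr) and Benjamini-Hochberg adjustment over all genes tested. Sex and stage were covariates in Drop-seq, and CITE-seq had no covariate. Standard errors are the log2 fold change over the root of F. The share of S100a8 and S100a9 cells was compared by a two-sided permutation test. The tests were tried on simulated data. Genes named were the 10 members, the list genes called over all glands, and the 3 most similar genes outside the family for members with at least 200 UMIs. Coordinates and exon lengths came from an mm10 annotation, and promoters from RefSeq. Alternatives included other scalings, no filter, DESeq2 1.42.0, a replicate block, batch as a factor and thinned counts.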

Additional observations from a re-analysis of the deposited data

Results flagged for a closer look

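Of 37 gene and group combinations searched with Dixon's test for a gland far from the others of its group, 4 stood out, where chance gives about 1 in 20. S100a9 was 43.4 CPM in double-mutant P90 replicate 5 (30 UMIs), the gland with the doubtful sex label, against 15.6 CPM in the next gland. S100a10 was 159 CPM in control P40 replicate 1 (369 UMIs), against 67.5 CPM in the next. S100a11 was 352 CPM in double-mutant P40 replicate 2 (408 UMIs), against 212 CPM in the next. S100a13 was 26.2 CPM in control P90 replicate 5 (67 UMIs), the lowest of its group, against 35.7 CPM in the next.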

How the results depend on the processing

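Rare members limit what these libraries can show: S100a8 and S100a9 rested on 202 and 145 UMIs, double-mutant cells were the shallower ones, and stage cannot be told apart from batch in control glands. Of 83 recomputed counts and comparison values, 67 kept their side or stayed within 1.5 times the main value. Among them are bulk ratios recomputed without gene length. Gene length cancels in a ratio between libraries, so these were no check. Over all Drop-seq glands 5 members were called, 3 with batch as a factor and 2 after thinning to equal UMIs. With batch as a factor, S100a1, S100a4 and S100a8 were no longer called. The 3 calls of that fit, which tested 15183 genes, therefore include a member not called in the main fit. At P40 there were 0 calls, but 5 without a filter on low counts (1328 genes higher and 329 lower of 26435) and 2 with DESeq2 (544 higher and 137 lower of 10213). For sex in control glands the count was 1, with 3 without a filter, 0 with library totals and 0 without ductal Egf+-like cells (added after seeing the data). In CITE-seq there were 5, with 8 under library totals and 3 to 5 when 1 gland was left out, 3 being the count without double-mutant replicate 1. Within classes 4 pairs were called, 7 with library totals, 10 without a filter and 2 with the number of cells as a covariate. Library totals called 2998 of 10058 genes higher in CITE-seq and, within classes, up to 884 of 1758 (myeloid-like cells). Requiring 2 UMIs of S100a8 or S100a9 left a difference of 0.0682 percentage points (permutation p = 0.13). The causes of these shifts were not tested.

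The replicate numbers did not pair the samples, as same-numbered glands had correlations from -0.35 to 0.52, above 0.1 in 16 of 37 pairs. With the replicate block 4 members were called at P40, 0 for sex in control glands, and 7 pairs within classes.

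Directions that turned belonged to uncalled differences, except S100a16 over all glands, 0.50 with library totals (adjusted p = 0.031). Library totals gave, in log2 units, 0.52 for S100a11 over all glands, 0.27 for S100a1 and 0.53 for S100a16 at P40, 0.27 for S100a11 at P90, -0.077 for S100a10 and -0.020 for S100a16 in the interaction, 0.074 for S100a10, 0.12 for S100a13 and 0.15 for S100a16 between stages in double-mutant and 0.056 for S100a10 and 0.10 for S100a16 in control glands, and -0.43 for S100a11 and -0.16 for S100a13 between sexes. Without a filter S100a13 (-0.036) and S100a16 (-0.015) turned at P90, S100a10 (-0.025) in the interaction and S100a6 (-0.028) between control stages. With the replicate block S100a16 was -0.20 at P90 and S100a10 -0.18 in the interaction. Without the libraries of doubtful sex S100a11 was -0.039 at P40, and between double-mutant stages S100a10 was 0.18, S100a13 0.0069 and S100a9 -0.064. Without the library high in ribosomal genes S100a13 was -0.047 at P90, S100a10 -0.062 in the interaction and S100a11 -0.013 between double-mutant stages. With DESeq2 the S100a8 interaction was -0.21. Without ductal Egf+-like cells S100a11 was 0.064 over all glands and, between sexes, S100a11 was -0.37 and S100a13 -0.29. Without myeloid-like cells S100a16 was 0.040 over all glands. In CITE-seq S100a16 ranged from -0.16 (without double-mutant replicate 1) to 0.20 when 1 gland was left out, with -0.0052 without control replicate 2.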
